A study of Rattus norvegicus with 23 samples.

Results

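The interleukins and interleukin receptors outside the IL-1 family were measured as RNA in the lungs of old male rats that had inhaled titanium dioxide (TiO2) nanoparticles or filtered air. The genes were chosen by name. Every gene on the array whose symbol starts with Il and a number was taken, leaving out Il34 and the names of the IL-1, IL-18, IL-33 and IL-36 ligands and receptors. This gave 61 of the 25595 genes with a symbol, made up of 29 ligands, 31 receptor chains and the enzyme Il4i1, and they were read by 88 probes. Il1f10 stayed in by its name although its protein belongs to the IL-1 family. No measured value was used in the choice.

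All groups were F344 males of 19 months that were held for nose-only inhalation over 4 weeks, on 5 days of each week and for 6 h of each day. Control rats received filtered air and exposed rats a TiO2 aerosol of 10 mg/m3, and the accessory lobe was taken right after the last exposure (D0) or 28 days later (D28). The arrays, 1 rat each, were 6 control and 5 exposed on D0 and 6 control and 6 exposed on D28. The source label of the exposed D28 rats reads day 0, whereas their titles and descriptions give day 28, and the titles were used here. F344 is an inbred strain, so the rats of a group are genetically alike, and only males were studied.

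Interleukins are secreted signals that pass between immune cells and from immune cells to epithelium and stroma. Most of those described here bind receptors without enzyme activity of their own, which hand the signal to JAK kinases and STAT transcription factors, while the IL-17 receptors use the adaptor Act1 (Traf3ip2) and NF-kB. In the lung IL-4, IL-5 and IL-13 are known for type 2 inflammation with eosinophils and mucus, IL-17A and IL-17F for the recruitment of neutrophils, IL-6 and IL-11 for signals through the shared chain gp130, and IL-10 for the restraint of inflammation. The IL-20 subgroup of the IL-10 family, to which IL-19, IL-20 and IL-24 belong, signals mainly to epithelial cells.

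Values are log2 of the scanner's background-subtracted signal after quantile normalization between arrays, and each gene is the mean of its probes. Such a value can be set against the same gene on another array, not against another gene, because probes differ in brightness. A spot was called well above background by the scanner software, and a gene counted as above it on an array when any of its probes was. Between 69.5 and 77.9% of all spots passed that call on an array, and the arrays lay on 5 slides. Markers of lung epithelium (Sftpc, Sftpa1, Sftpb, Ager, Scgb1a1) had a mean signal between 15.8 and 16.2 on all arrays. The mean signal of 9 macrophage markers was higher in exposed rats on D0 (8.89 ± 0.14, n = 5) than in controls (8.45 ± 0.10, n = 6), by 0.45. An exact two-sided permutation of the arrays gave p = 0.00216, which is the lowest value groups of this size can reach, and an adjusted p of 0.0346 over 16 tests of cell type lists. The cell type lists were chosen with earlier results of these data known, so these tests are not independent. Of the 9 macrophage markers 8 were higher on D0, and 1, Siglec1, was called, where 1.79% of all genes were. In bulk tissue fewer cells of a type and less RNA per cell cannot be told apart.

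By this call most receptors were above background on all arrays, and most interleukin ligands were not. A gene with several probes had more chances to pass. Il23r and Il2ra passed on all 23 arrays, while another probe of each passed on 3 and 10. A total of 30 of the 61 genes were well above background on all 23 arrays. They were 23 receptor chains, the enzyme Il4i1 and 6 ligands. Those ligands were Il7 and Il15, which sustain lymphocytes, Il16, which attracts CD4+ cells, the IL-17 relatives Il17b and Il17d, and Il23a, the subunit that sets IL-23 apart from IL-12. A further 23 genes, of which 18 were ligands, passed on some arrays. The remaining 8 passed on none, and they were Il2, Il3, Il12a, Il22 and Il1f10 among the ligands and Il5ra, Il17rb and Il22ra1 among the receptors. The number of genes above background did not separate the groups, with medians per array of 39.5 in controls and 39 in TiO2-exposed rats on D0, then 39.5 and 37.5 on D28.

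**Figure D1:**
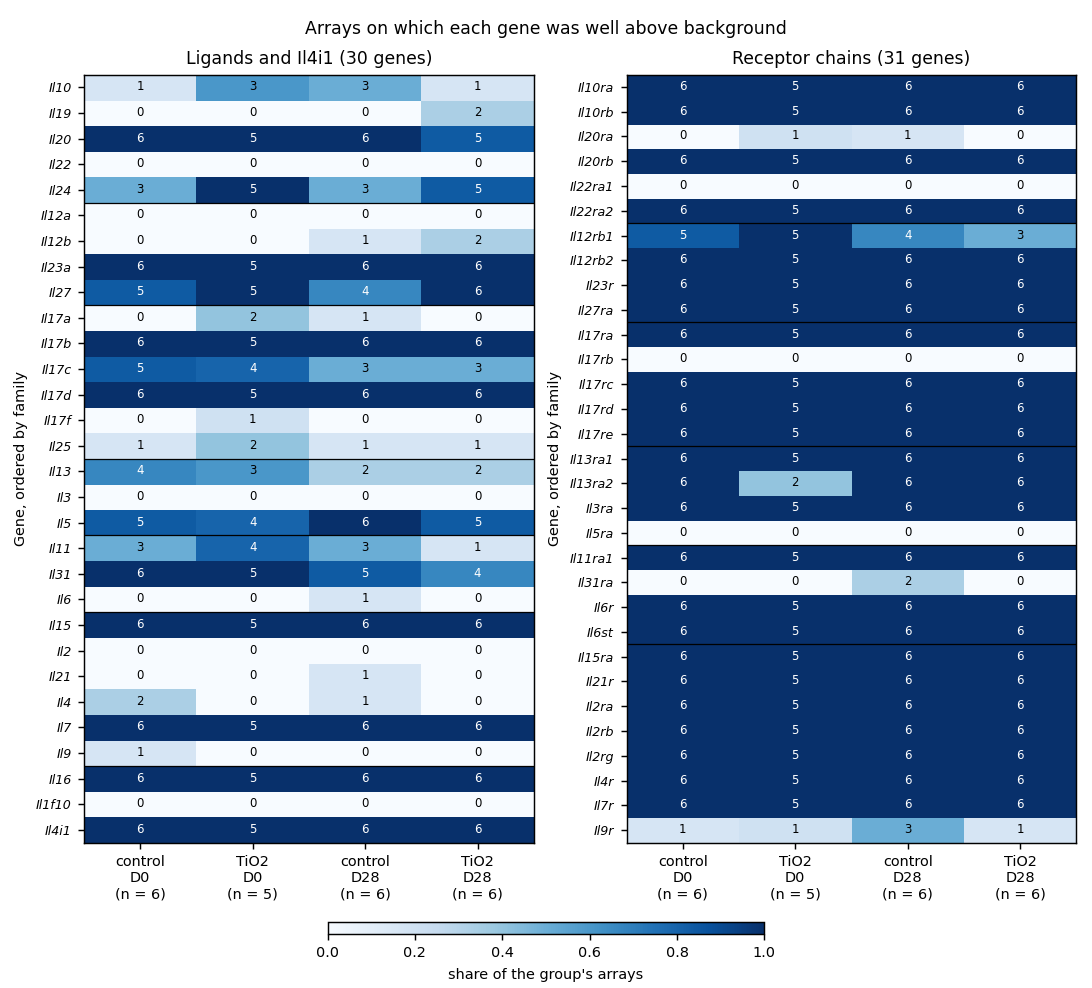
Number of arrays in each group (columns, with n) on which any probe of a gene (rows, ordered by family within ligands and receptors) was well above background. The colour is the share of the group's arrays. The receptor panel is mostly full, with 23 of 31 genes above background on all 23 arrays, while among the ligands Il4 goes from 2 of 6 control arrays to 0 of 5 exposed arrays on D0 and Il24 from 3 of 6 to 5 of 5.

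Of the 61 genes, 57 were tested, since Il3, Il5ra, Il9 and Il19 did not exceed the negative controls on enough arrays. A gene was called a DEG at an adjusted p below 0.05 with a fold change (FC) of at least 1.5 in either direction. On D0 1 of the 57 genes was called, Il24, where 1.79% of all 23026 tested genes were. On D28 0 of the 57 were called by limma, where the share of all genes was 0.756%, while 3 had an unadjusted p below 0.05. For the mean TiO2 effect of both days 1 gene was called, again Il24, against 1.87% of all genes. For the difference between the effects of the days 0 were called, against 0.0304%, with 1 at an unadjusted p below 0.05 (Il17a) where all genes gave 3.44%.

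Looser readings gave shares near or below the background. At an unadjusted p below 0.05, 7 genes passed on D0 (background 11.9%), of which 4 were higher (Il24, Il17a, Il23a, Il4i1) and 3 lower (Il4, Il13ra2, Il11ra1). On D28 the 3 were Il24, Il12b and Il2ra, all higher, beside a background of 11%. For the mean of both days 7 passed, beside 17.2%. The exposed and control values of 1 gene did not overlap on D0, which was Il24, beside 4.31% of all genes, and those of 0 genes on D28, beside 1.22%. The median log2 FC of the 57 genes was 0.07 on D0 and -0.01 on D28. The direction was the same on both days for 35 of the 57 genes (61.4%), as it was for 63.0% of all genes tested.

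**Figure D2:**
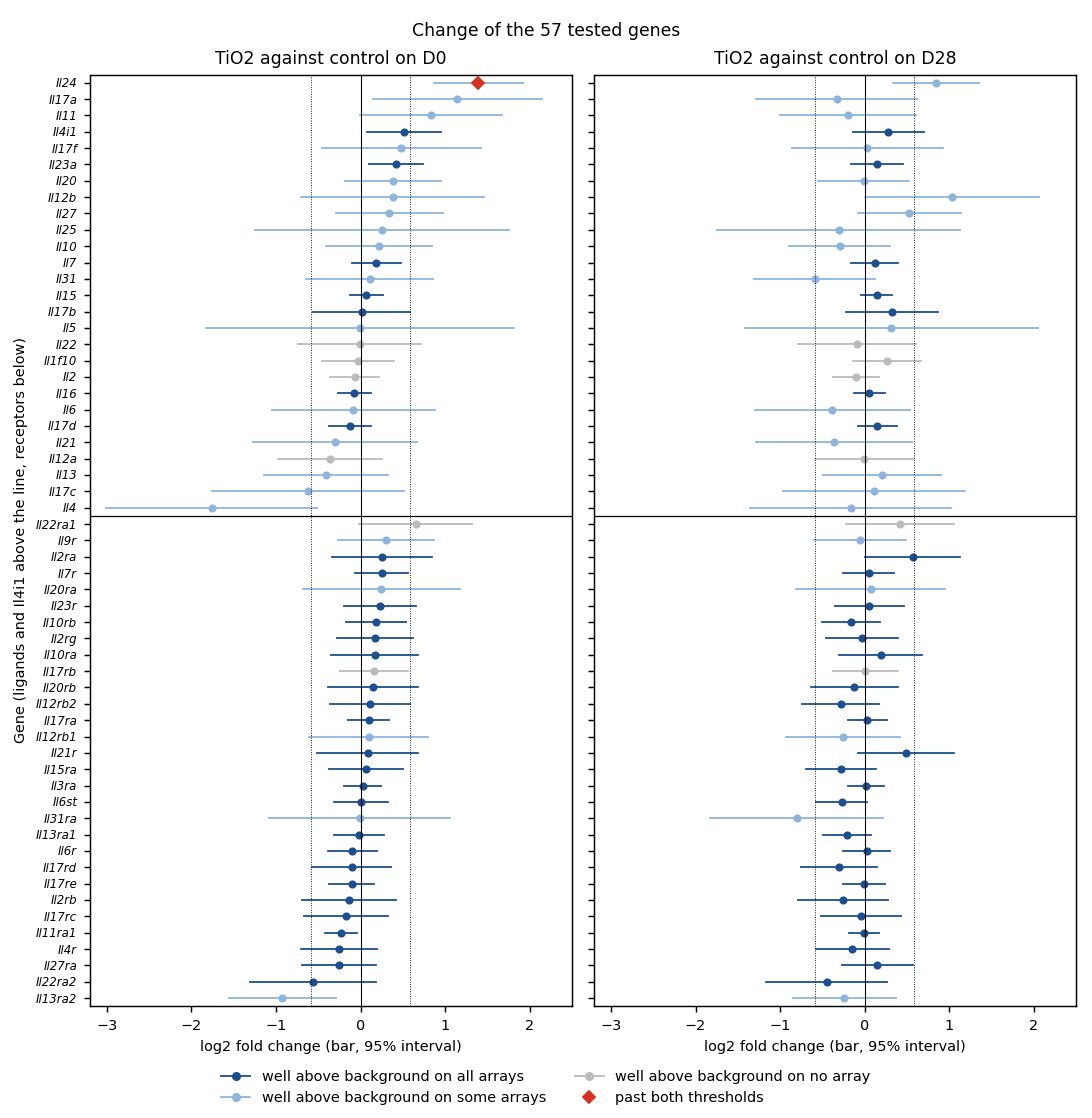
Log2 FC of TiO2 against control for the 57 tested genes on D0 (left) and D28 (right). The 95% intervals were built from the limma SE and a t distribution with the 19 residual degrees of freedom. Ligands and Il4i1 are above the line and receptors below, ordered by the D0 value. Dotted lines mark an FC of 1.5. Il24 on D0 (1.39) is the one gene past both thresholds, and the widest D0 interval is that of Il5 (-1.83 to 1.81).

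Il24 was the interleukin that rose. It encodes a ligand of the IL-20 subgroup that acts on epithelial cells, those of the skin included, through the IL-20 receptors. On D0 the signal was 5.56, 5.19, 5.28, 5.21 and 4.86 in the 5 exposed rats, and in the 6 controls the lowest was 3.37, the median 3.87 and the highest 4.31. Every exposed rat lay above every control, and the probe was well above background on 5 of 5 exposed and 3 of 6 control arrays. The increase was 1.39 on the log2 scale (SE 0.25), a 2.62-fold change with an adjusted p of 0.00311 by limma. Within each of the 4 slides that held both groups the exposed rats were higher, by 1.15 to 1.63.

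On D28 the groups overlapped. The exposed rats had a lowest Il24 signal of 4.08, a median of 4.83 and a highest of 5.48, and the controls had 3.20, 4.04 and 4.70. The difference was 0.84 (SE 0.24), which did not pass (adjusted p = 0.101), although the exposed rats were higher on all 3 slides with both groups. The D28 effect was 0.56 lower than the D0 effect, and this difference did not pass either. With slide as a block the D28 value was 1.01 and passed (adjusted p = 0.0281), and it also passed without control D28 replicate 4 (0.98, adjusted p = 0.0488) or without TiO2 D28 replicate 3 (0.98, adjusted p = 0.0467). Over both days the mean effect was 1.11 (2.17-fold, adjusted p = 0.000369).

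The size of the Il24 difference depended on how the background was treated. The log2 FC on D0 was 0.51 on the median signal without subtraction and on the deposited table, and 0.38 after the normexp correction, so in these 3 it was below the FC limit of 1.5 while the adjusted p stayed below 0.05. The mean effect of both days was likewise below that limit in these settings, at 0.42, 0.42 and 0.30, and also without the filter on dim probes, which adds the second Il24 probe, at 0.55. The mean macrophage marker signal moved in the same direction on D0, as given above, and its part in the Il24 result was not tested.

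The Il24 value rests on 1 probe on chromosome 13, at 43831514 to 43831573 of the rat build rn4 on the minus strand. The first 30 of its bases are shown, in lower case with nothing marked, because this one oligonucleotide carries the only called change.

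Il24, first 30 bases: acttcctgtgagctggctcaccatgggggc

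A second Il24 probe, at 43832042 to 43832101, was well above background on 0 arrays and was not kept. The neighbours of Il24 lie in one row on the same chromosome, with probe positions of Il24, Il20, Il19 and Il10 over 126253 bases in all. Il20, a ligand for the same receptors, was well above background on 22 of 23 arrays. Its signal on D0 was 5.33, 6.00, 6.38, 4.80 and 5.97 in exposed rats against 4.55, 5.40 and 5.74 (lowest, median and highest) in controls, and the log2 FC of 0.39 did not pass (adjusted p = 0.714). Il19 was well above background on 2 exposed D28 arrays and was not tested. Il10, which dampens macrophage and dendritic cell responses, had a log2 FC of 0.21 on D0 and -0.30 on D28, with adjusted p-values of 0.935 and 0.800. It passed the background call on 3 of 5 exposed and 1 of 6 control arrays on D0. Il22, a ligand that acts on epithelial barriers, was well above background on no array and has no fold here.

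**Figure D3:**
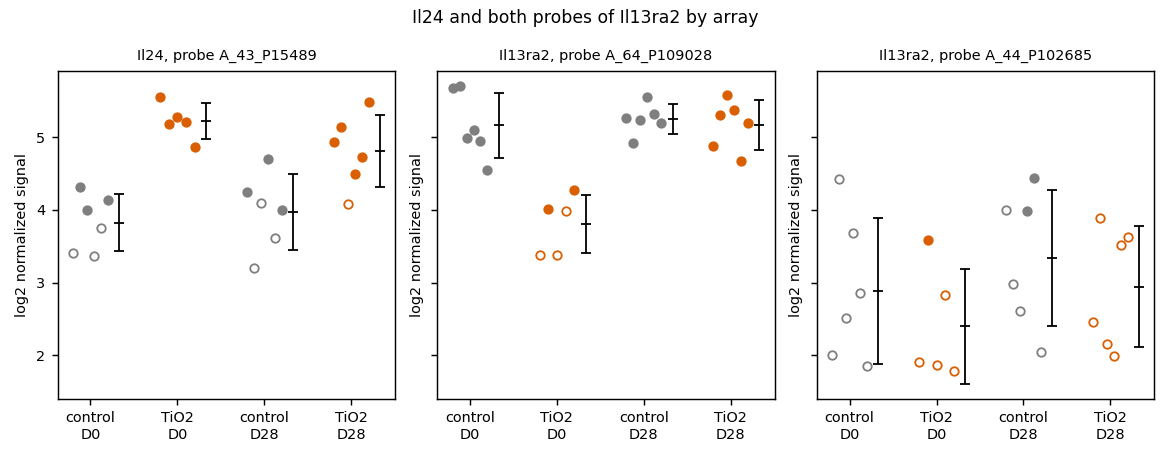
Log2 normalized signal by array for Il24 (left) and for each of the 2 probes of Il13ra2 (middle and right). Filled points were well above background and open points were not, and bars are mean ± SD of the group. The 5 exposed D0 arrays lie above all controls for Il24 (5.22 ± 0.25 against 3.83 ± 0.39) and below all controls for the middle probe (3.81 ± 0.40 against 5.16 ± 0.45), while the right probe is well above background on 3 arrays.

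Among the receptors the lowest D0 value belonged to Il13ra2, and its 2 probes gave different pictures. Il13ra2 binds IL-13 with high affinity and is known mostly as a decoy that keeps IL-13 from its signalling receptor. As the mean of both probes its log2 FC on D0 was -0.92 (SE 0.30), which did not pass (adjusted p = 0.127), and the exposed rats were lower on all 4 slides that held both groups.

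The probe at 30506824 to 30506883 of chromosome X was above background on 6 of 6 control and 2 of 5 exposed arrays on D0. Its signal was 3.39, 4.01, 3.38, 3.98 and 4.27 in the exposed rats, and 4.55, 5.05 and 5.71 (lowest, median and highest) in the controls. All exposed values were below all control values. Tested as a single probe, an alternative added after the data were seen, it fell by 1.36 on the log2 scale (SE 0.21), with an adjusted p of 0.00119 over 40416 probes. On D28 it was above background on all arrays of both groups, with means of 5.17 ± 0.34 in exposed rats and 5.25 ± 0.20 in controls (n = 6 each), a difference of -0.08 (adjusted p = 0.964). The effects of the 2 days differed by 1.28 with an unadjusted p of 0.000289 by limma, which did not pass over all probes (adjusted p = 0.321).

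The other probe, 7252 bases away at 30514136 to 30514195, was well above background on 3 of 23 arrays. Its log2 FC on D0 was -0.49 (SE 0.52, adjusted p = 0.947). The signals of the brighter and the dimmer probe were not set against each other, and the gene's mean carries both. Both probes lie on the minus strand and are printed in lower case with nothing marked, because the call on this receptor turns on which of them is read.

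Il13ra2, brighter probe: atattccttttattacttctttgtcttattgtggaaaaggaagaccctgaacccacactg
Il13ra2, dimmer probe: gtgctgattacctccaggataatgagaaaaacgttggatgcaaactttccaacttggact

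Of the 83 probes that were kept for these genes, 2 were called on D0, Il24 and the brighter Il13ra2 probe, where 1.25% of all probes were called. On D28 limma called 0 of the 83, where 0.448% of all probes were. For the mean of both days the same 2 probes were called, where the share of all probes was 1.51%.

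The type 2 cytokines were mostly at the edge of detection. Il4, the signal that turns T cells to type 2 help, was well above background on 2 of 6 control and 0 of 5 exposed arrays on D0. Its signal was 1.65, 1.97, 3.36, 1.75 and 1.61 in the exposed rats, and 1.72, 3.48 and 5.79 (lowest, median and highest) in the controls, so the groups overlapped. The means were 3.82 in controls and 2.07 in exposed rats, a log2 FC of -1.76 that did not pass by limma (adjusted p = 0.145). Most of these values were not above background, so the size of the difference is not known. Without control D0 replicate 1 the D0 difference was -2.18 and was called (adjusted p = 0.0387). On D28 Il4 was above background on 1 of 6 control and 0 of 6 exposed arrays and has no fold. The single Il4 probe, at 39074590 to 39074649 of chromosome 10 on the minus strand, is shown because 3 of 23 arrays gave it a signal above background.

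Il4: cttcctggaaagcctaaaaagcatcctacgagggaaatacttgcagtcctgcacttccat

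Il13, the inducer of mucus and of alternative macrophage activation, lies beside Il4 on the chromosome. It was well above background on 4 of 6 control and 3 of 5 exposed arrays on D0, and its log2 FC was -0.41 (SE 0.35, adjusted p = 0.818) on D0 and 0.20 (SE 0.33, adjusted p = 0.911) on D28. Il5, the growth factor of eosinophils, was well above background on 20 of 23 arrays but varied most of the 57 genes, with a residual SD of 1.51. Its signal ran from 1.79 to 7.89, a range of 6.10 on the log2 scale, with both extremes in control rats. The log2 FC was -0.01 (SE 0.87) on D0 and 0.31 (SE 0.83) on D28, and the 95% interval on D0 reached from -1.83 to 1.81, so a change of that size was not detectable for Il5 with these arrays.

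The receptors of these ligands were measured with less spread. Il4r, the chain shared by the IL-4 and IL-13 receptors, had a log2 FC of -0.25 (SE 0.22) on D0 and -0.15 (SE 0.21) on D28. Il13ra1, its signalling partner for IL-13, was at 9.02 ± 0.22 (n = 5) in exposed and 9.04 ± 0.19 (n = 6) in control rats on D0, with a log2 FC of -0.02. Neither receptor passed on either day.

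Several genes known to answer IL-4 and IL-13 passed. Their list was chosen with earlier results of these data known, so the count is not an independent test. Of 15 tested, 3 rose on D0 and 1 fell, where 1.79% of all genes were called, and the list median was 0.26. Retnla, a secreted marker of alternatively activated macrophages and airway epithelium, rose by 3.25 (SE 0.31) on D0 and 2.64 (SE 0.29) on D28, from 9.17 ± 0.48 in D0 controls to 12.43 ± 0.74 in exposed rats. Chia, a chitinase of acid pH, rose by 1.54 and 1.43, and Chi3l1, a chitinase-like protein without enzyme activity, by 1.19 and 0.95. Alox15, a lipoxygenase, fell by 1.03 on D0 and did not pass on D28. On D28 the same 3 genes rose and 0 fell, where 0.756% of all genes were called, and the list median was 0.23. What induced these genes was not tested.

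Markers of cells that make or answer these ligands were read beside them. The mean of 4 eosinophil markers was lower in exposed rats on D0 by 0.57 (exact permutation test of both sides, p = 0.0346, adjusted p = 0.185), and none of the 5 values exceeded the highest control. Of these markers Ear1, an eosinophil ribonuclease above background on 12 arrays, gave the largest difference (-1.33), while Ccr3 (-0.50) and Prg2 (-0.38) were above it on all 23. Epx, the eosinophil peroxidase, was well above background on 0 arrays. The mean of 7 mast cell markers differed by -0.38 (exact permutation test, p = 0.0628, adjusted p = 0.251) and that of 11 T cell markers by 0.02 (exact permutation test, adjusted p = 0.952). The part of these cells in the Il4 and Il13ra2 values was not tested.

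**Figure D4:**
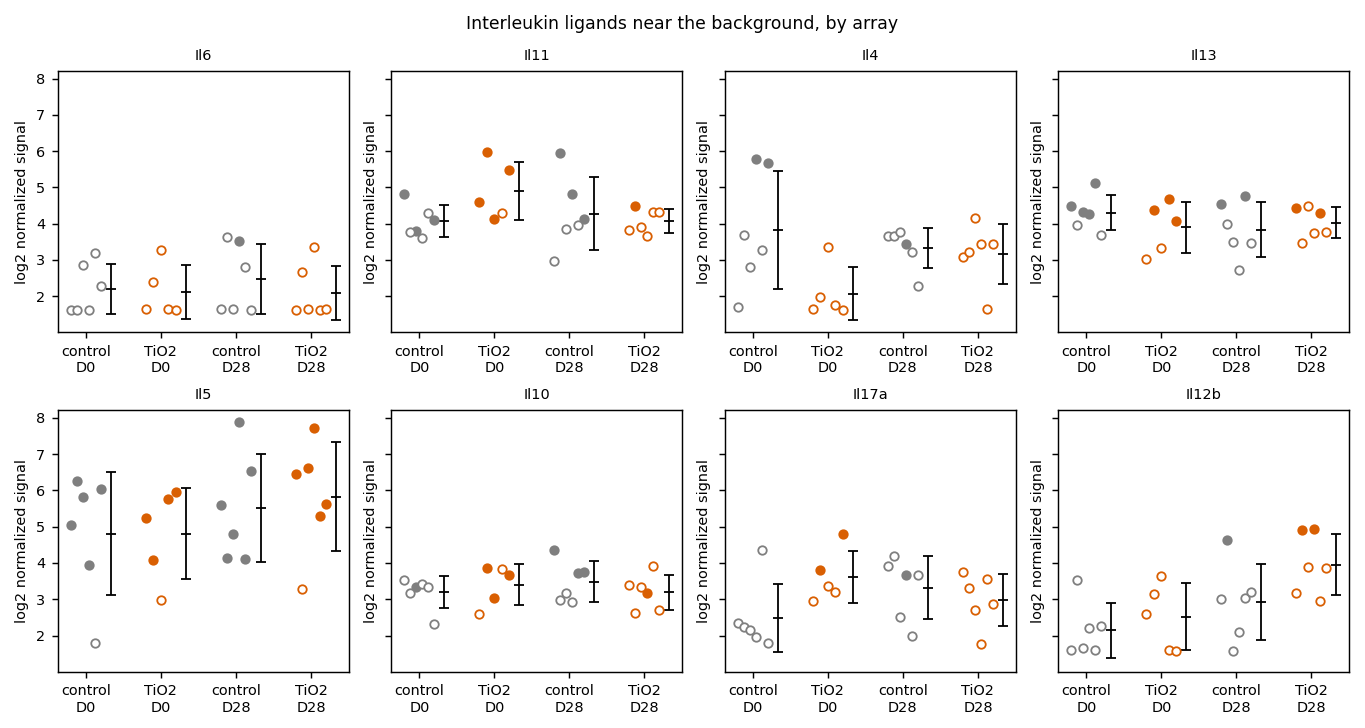
Log2 normalized signal by array for 8 ligands near the background, in controls (grey) and exposed rats (orange) on D0 and D28. Filled points were well above background, open points were not, and bars are mean ± SD. Il6 has 1 filled point, Il4 has 0 among the exposed rats of both days, and Il5 spans 1.79 to 7.89.

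Il6 could not be measured in these lungs with its probe. It encodes the main inducer of the acute-phase response. It was well above background on 1 of 23 arrays, in a control rat of D28, so it has no fold. Its D0 values, 1.63, 2.40, 3.29, 1.64 and 1.61 in the exposed rats, overlapped those of the controls (1.62, 1.96 and 3.19). The probe, on the minus strand of chromosome 4 with ends at 457279 and 458563, is 60 bases long, fewer than lie between its ends, so its match to the genome is interrupted. It is shown because the absence of a measurable Il6 signal rests on it alone.

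Il6: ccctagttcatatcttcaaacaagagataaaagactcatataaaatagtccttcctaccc

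Il11, a gp130 ligand made by stromal and epithelial cells, was above background on more arrays. On D0 its signal was 4.59, 5.99, 4.12, 4.30 and 5.49 in exposed rats against 3.60, 3.95 and 4.82 in controls, and it passed the background call on 4 of 5 and 3 of 6 arrays. The 2 highest values were in exposed rats and the others overlapped. The log2 FC was 0.83 (SE 0.40, adjusted p = 0.426) on D0 and -0.20 (SE 0.38, adjusted p = 0.931) on D28. This was the largest log2 FC of its family on D0, and it did not pass.

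Of the 4 receptors of this family 3 were above background on all arrays, Il31ra, which binds IL-31, was above it on 2 of 23, and none passed on either day. Il6st, which encodes gp130, had a log2 FC of 0.00 (SE 0.15) on D0 and -0.27 (SE 0.14, adjusted p = 0.527) on D28. Il6r, the IL-6 binding chain, differed by -0.10 (SE 0.14) and 0.02 (SE 0.13). Il11ra1, the IL-11 binding chain, had the lowest D0 value of the group, with 9.64, 9.48, 9.41, 9.66 and 9.65 in exposed rats against 9.57, 9.83 and 9.91 in controls. Its difference of -0.23 (SE 0.09) had an unadjusted p below 0.05 by limma and an adjusted p of 0.215, and on D28 it was -0.01.

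The IL-6 group has partners that do not carry an Il name. Of 15 such cytokines and chains 1 passed on D0, where 1.79% of all genes did. It was Osm, encoding the gp130 ligand oncostatin M, which macrophages and neutrophils release. It rose by 0.59 on the log2 scale (SE 0.11, adjusted p = 0.00357), from 7.52 ± 0.19 in controls (n = 6) to 8.10 ± 0.13 in exposed rats (n = 5), and the values did not overlap. The log2 FC of Osm, 0.588, lay just above the FC limit, which is 0.585 on this scale. Its call was not repeated under other processing settings. On D28 limma called 0 of the 15, where 0.756% of all genes were called. At an unadjusted p below 0.05 there were 2, beside 11% of all genes.

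Among 16 STAT3 and acute-phase targets 4 rose and 1 fell on D0, where 1.79% of all genes were called. The list median was 0.18. The 4 were Lcn2 (1.65), which encodes an iron-siderophore binding protein, A2m (1.56), a protease trap, Hp (0.91), haptoglobin, and Bcl3 (0.65), an NF-kB cofactor. Hamp, the iron hormone hepcidin, fell by 1.01. On D28 Hp alone of the 16 rose (0.76, adjusted p = 0.00721), where 0.756% of all genes were called. The list holds genes that IL-1, TNF or glucocorticoids also induce, and it is not a readout of IL-6 or IL-11 alone. It was chosen with earlier results of these data known.

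The lists of kinases and factors between receptor and target held no called gene. Limma called 0 of 4 JAK kinases, 0 of 7 STAT factors and 0 of 16 feedback inhibitors on D0 and on D28. Of all genes 1.79% were called on D0 and 0.756% on D28, so 0 calls in lists this short is near those shares. At an unadjusted p below 0.05 there were 1, 0 and 0 on D0 and 0, 0 and 0 on D28. All genes gave 11.9% and 11%. The median log2 FC of these lists on D0 was 0.13, 0.10 and 0.03. The largest D0 value of the JAK list was 0.38. Signalling through these proteins depends on their phosphorylation, which RNA does not report.

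**Figure D5:**
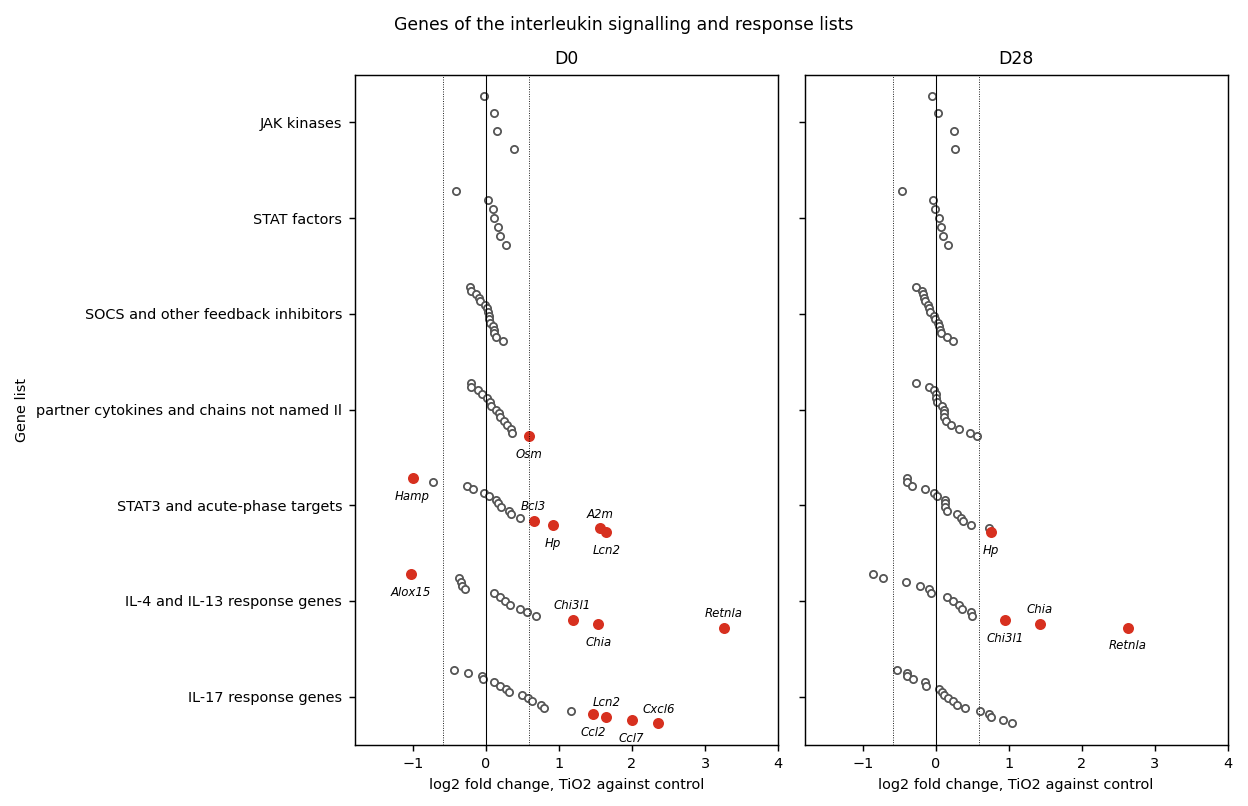
Log2 FC on D0 (left) and D28 (right) of the genes of 7 signalling and response lists, 1 point a gene, with called genes filled and named. Dotted lines mark an FC of 1.5. The JAK, STAT and feedback lists have 0 called genes, and the called genes lie in the partner and response lists, up to 3.25 for Retnla on D0. Of all genes 1.79% were called on D0 and 0.756% on D28.

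Of the 11 tested genes of the IL-17 family 0 passed, where 1.79% of all genes were called on D0 and 0.756% on D28. Il17a, the T cell cytokine that calls in neutrophils, was well above background on 2 of 5 exposed and 0 of 6 control arrays on D0. Its signal was 2.95, 3.80, 3.35, 3.20 and 4.79 in the exposed rats and 1.80, 2.21 and 4.35 in the controls. One control reached into the exposed range. With control values raised to the lowest signal above background, the means were 3.62 in exposed rats and 3.49 in controls, a 1.09-fold difference. The exposed values were left as measured, most of them not above background, so this is not a lower limit. The measured means, 3.62 and 2.48, gave a difference that did not pass by limma (adjusted p = 0.291). On D28 it was above background on 1 of 6 control and 0 of 6 exposed arrays and has no fold. Il17c, an epithelial member of the family, had the largest D0 difference among the family members above background on most arrays, at -0.62 (SE 0.54, adjusted p = 0.822). This value rested on 1 exposed rat, replicate 1 with a signal of 1.86, and without it the difference was -0.04. Il17ra, the chain that most IL-17 receptors share, was at 13.78 ± 0.15 (n = 5) and 13.68 ± 0.17 (n = 6) on D0, a difference of 0.09 (SE 0.12).

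Genes known to answer IL-17 were called on D0. Of 18 tested 4 rose, where 1.79% of all genes were called, and the list median was 0.54. They were Ccl7 (1.99) and Ccl2 (1.46), chemokines for monocytes, Lcn2 (1.65), which also stands in the acute-phase list, and Cxcl6. Cxcl6, a neutrophil chemokine, was above background on 4 of 5 exposed and 0 of 6 control arrays. With control values raised to the lowest signal above background it was 2.23-fold higher in exposed rats. The adjusted p of 0.0204 by limma belongs to the measured values. The control groups of the 2 days were unlike for Cxcl6. Controls ran from 1.75 to 2.45 on D0 and from 3.72 to 4.98 on D28, where 5 of 6 were above background. The exposed D0 values, from 1.85 to 5.50, overlapped the D28 controls. On D28 limma called 0 of the 18, where 0.756% of all genes were called. At an unadjusted p below 0.05 there were 4, beside 11% of all genes, and the list median was 0.14. This list too was chosen with earlier results of these data known, and what induced its called genes was not tested. The mean of 8 neutrophil markers differed by -0.05 on D0 (exact permutation test, adjusted p = 0.952). Single markers ran from -0.80 to 0.63, with 3 of the 8 higher. The paper reports a raised share of neutrophils in lavage fluid from the left lobe of exposed rats on D0. The marker mean, from RNA of the accessory lobe, does not stand for that count.

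In the IL-12 family (8 tested) and the common gamma chain family (13 tested) no gene, as the mean of its probes, passed on either day. The share of all genes called was 1.79% on D0 and 0.756% on D28. Il23a, which T cells of the IL-17 type depend on, was 7.72, 7.46, 7.78, 6.85 and 7.70 in the exposed rats of D0 against 6.86, 7.15 and 7.24 in controls. Of the 5 exposed rats 4 lay above all controls and 1 below all of them. The difference was 0.42 (SE 0.15, adjusted p = 0.201), and on D28 it was 0.14 (SE 0.15). Il12b, the subunit that IL-12 and IL-23 share, was above background on 2 of 6 exposed and 1 of 6 control arrays on D28, where its log2 FC was 1.03 (SE 0.49, adjusted p = 0.451).

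Il2ra, the high-affinity IL-2 receptor chain of regulatory and activated T cells, had a log2 FC of 0.26 (SE 0.28) on D0 and 0.57 (SE 0.27, adjusted p = 0.441) on D28. On D28 its exposed values were 5.66, 5.79 and 6.70 (lowest, median and highest), and the controls ran from 4.42 over 5.64 to 6.17. Its 2 probes differed, which was looked at after the values were seen. The probe above background on all arrays had a log2 FC of 0.51 on D0 and 0.61 on D28, and its mean effect of 0.56 had an adjusted p of 0.0267 over all probes, below the FC limit. The probe above background on 10 of 23 arrays gave 0.00 on D0 and 0.52 on D28. The ligand Il2 was well above background on no array. Il2rg, the common gamma chain itself, differed by 0.17 (SE 0.22) and -0.03 (SE 0.21). Il7r, the IL-7 receptor of T cells and innate lymphoid cells, differed by 0.25 (SE 0.15) and 0.05 (SE 0.14).

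Il16, Il10ra and Il4i1 passed on neither day. Il16 differed by -0.08 (SE 0.09) on D0 and 0.05 (SE 0.09) on D28. Il10ra, the IL-10 binding chain, differed by 0.16 (SE 0.25) and 0.19 (SE 0.24). Il4i1, an amino acid oxidase that antigen-presenting cells secrete, was 5.75, 6.25, 6.67, 6.21 and 5.96 in the exposed rats of D0 against 5.18, 5.58 and 6.37 in controls, a difference of 0.51 (SE 0.21, adjusted p = 0.277). Il1f10 was well above background on no array and has no fold.

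The median residual SD was 0.35 for the 30 genes above background on all arrays, 0.76 for the 21 tested genes above it on some and 0.42 for the 6 tested genes above it on none. For the 23 receptors above background on all arrays the log2 FC ran from -0.56 to 0.26 on D0 and from -0.45 to 0.57 on D28, and the 95% interval lay wholly within an FC of 1.5 in either direction for 11 of them on D0 and 14 on D28. Of the 6 ligands above background on all arrays the interval of 5 lay within these limits on each day. On both days together this held for 13 of the 30 genes. Among the receptors they were Il6r, Il6st, Il7r, Il3ra, Il10rb, Il11ra1, Il13ra1, Il17ra and Il17re, and among the ligands Il7, Il15, Il16 and Il17d. Each interval is that of the mean of a gene's probes, and it does not hold for every single probe. A single Il15 probe gave 0.39 (SE 0.29) on D0, and a single Il13ra1 probe gave -0.26 (SE 0.29) on D28.

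Between the control groups of the 2 days limma called 0 of the 57 genes, where 0.608% of all genes were called. At an unadjusted p below 0.05 there were 5, beside a background of 13.3%. As the mean of 2 probes Il23r, the receptor chain of IL-23, was higher on D28 by 0.69 (adjusted p = 0.109), and so were Il7r by 0.45 (adjusted p = 0.165) and Il13ra1 by 0.39 (adjusted p = 0.197). The 2 probes of Il13ra1 differed by limma, at 0.02 (adjusted p = 0.978) and 0.77 (adjusted p = 0.266), while those of Il7r gave 0.45 and 0.46. Of the 83 probes 1 was called, where 0.46% of all probes were. It was the Il23r probe at 97087434 of chromosome 4, above background on all arrays, which was 0.88 higher in the D28 controls (adjusted p = 0.00734). The other Il23r probe, at 97706708, was above background on 3 arrays and differed by 0.51 (adjusted p = 0.606). Il17d was lower by 0.29 and Il21r, the IL-21 receptor of lymphocytes, by 0.59. Of the 5 slides 3 held controls of both days, and with slide as a block limma also called 0 of the 57.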

How the data were processed

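Total RNA of 23 rat lungs was labelled with 1 dye and hybridized to Agilent arrays. Per the file headers, the deposited intensities are the scanner output of Feature Extraction 11.0.1.1 (22 arrays) or 12.0.1.1 (1 control array of D28), with background subtracted and without normalization between arrays. The authors also deposited a table of intensities for all arrays. Its 23 columns are identical after sorting, so they were quantile normalized, and they follow the median signal without background subtraction. Gene names were taken from the scanner file of the 12.0.1.1 array and matched by probe. Probe positions are those of build rn4 in the scanner files, and annotation of that build was not used here, so exons and UTRs are not stated.

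Processed signals were put on the log2 scale, with outlier spots left out. Of 45598 probes, the 40416 whose signal exceeded the 95th percentile of 308 negative control spots on 5 or more arrays were retained, quantile normalized and averaged to genes by symbol. limma 3.58.1 (R 4.3.3) fitted 1 mean for each of the 4 groups (19 residual degrees of freedom), with Benjamini-Hochberg adjustment over all 23026 genes. The steps were tested on simulated data. Samples are separate rats. Replicate numbers did not pair the rats (11 pairs, r from -0.22 to 0.46). The number of arrays limits the precision.

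Genes named are Il6, Il4, Il11, a list of 21 others, genes past the thresholds or without overlap, the largest D0 difference of each family among genes above background on no fewer arrays than not, and called pathway genes. Il20, Il23r, Il31ra, Il17d and Il21r were named after their values were seen. Genes and lists were chosen with earlier results of these data known. Alternatives covered scaling, background, filters, probe summary, array weights, slide, replicate block and each array left out.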

Additional observations from a re-analysis of the deposited data

Results flagged for a closer look

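In 9 of the 108 groups of 5 or 6 rats examined for the 27 named genes, 1 array stood apart from the rest of its group, where chance alone gives about 1 in 20, or 5.4. Among control rats of D0 it was the highest for Il12b (3.54), Il17a (4.35) and Il2 (2.45) and the lowest for Il10 (2.32). Among control rats of D28 it was the highest for Il2 (2.53). Among exposed rats of D0 it was the highest for Il4 (3.36) and Il6st (11.95), and among exposed rats of D28 the highest for Il2ra (6.70) and Il1f10 (3.42). All are log2 normalized signals. Il6st and Il2ra were well above background on all 23 arrays, Il10 on 8, Il4, Il12b and Il17a on 3 each, and Il2 and Il1f10 on 0.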

How the results depend on the processing

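Il24 on D0 kept its direction in all 15 alternatives (log2 FC 0.38 or more) and in all 23 fits that left out 1 array (1.30 to 1.49), with an adjusted p below 0.05 in each. Several of the 15 could not change its log2 FC. The unadjusted p and the lack of an FC limit altered only the call. The brightest probe of Il24 was the only one kept. The count of called genes on D0, 1 as reported, was 0 with normexp, 0 on the median signal without background correction and 0 on the deposited table, where Il24 stayed below the FC limit. It was 2 when only probes well above background on a whole group were kept and 2 with the brightest probe of each gene, where Il13ra2 joined (-1.47 and -1.36), and 4 with the unadjusted p (Il4, Il13ra2, Il17a, Il24). On D28 the count of 0 became 1 with slide as a block (Il24, 1.01, adjusted p = 0.0281) and 2 with the unadjusted p (Il12b, Il24). For the mean of both days the count of 1 became 2 with 75th percentile scaling (with Il22ra1, well above background on 0 arrays), 0 with normexp, 0 on the median signal, 0 on the deposited table, 0 without the low filter, 2 with the stricter filter, 2 with the brightest probe and 2 with the unadjusted p. For the difference of the days the count of 0 became 1 with the unadjusted p (Il17a). For the control groups the count of 0 became 1 with the stricter filter and 1 with the brightest probe (Il23r in both), and 2 with the unadjusted p. With 1 array left out the count ran from 1 to 2 on D0 and from 0 to 1 on D28, and was 1 for the mean and 0 for the other comparisons in every such fit. Without control D0 replicate 1, Il4 was called on D0 (-2.18, adjusted p = 0.0387). Without control D28 replicate 4 or TiO2 D28 replicate 3, Il24 was called on D28 (0.98 in both, adjusted p = 0.0488 and 0.0467). With a replicate block the counts were 1 on D0, 0 on D28, 1 for the mean and 0 for the others, and Il24 had a log2 FC of 1.46 on D0 (adjusted p = 0.00875). Of 1916 single-gene values under the other alternatives 64 changed sign, as did 123 of 3105 with 1 array left out and 19 of 95 for single probes. Each of these had a reported unadjusted p of 0.05 or more and a reported log2 FC of at most 0.51 in size. The cause of these changes was not tested. Il2, Il22 and Il1f10 were well above background on 0 arrays and Il6 on 1, so a fall in them could not have been seen.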
